A study of Mus musculus with 31 samples.

Results

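Granulocyte-macrophage progenitors (GMP, 4 arrays) were compared with the multipotent progenitors called MPP3 (3 arrays), 7 of the 31 arrays in the series. Arrays were assigned by the population named in their titles, and no expression value entered that choice. All cells came from bone marrow of C57BL/6 mice, for which the labels give no treatment, transgene, age or sex. Both populations were lineage-negative and cKit+. The MPP3 gate was further Sca1+, Flk2-, CD48+ and CD150-, and the GMP gate was Fc gamma receptor+ and CD34+, with no Sca1 criterion in the stated definition. Each sample was 20000 cells, sorted in consecutive rounds, whose RNA was amplified before hybridisation to mouse whole-transcript arrays. The labels call the replicates biological but tie none to an animal or pool, and they state that the GMP samples were shared with another study as its controls. The p-values therefore measure the spread between arrays. For each gene that spread was estimated within all 9 populations of the 31 arrays, and not within GMP and MPP3 alone.

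MPP3 are multipotent progenitors that sit just below the stem cells and produce mostly myeloid cells. GMP are committed progenitors that give rise to neutrophils and monocytes, and are the stage at which primary (azurophil) granules begin to fill with proteases and peroxidase. Secondary and tertiary granules are filled later, in myelocytes and beyond. PU.1 and C/EBP alpha are the transcription factors best known for switching on this program, and IRF8 favours the monocyte branch over the granulocyte branch. Stem cell identity is maintained by factors such as Hlf, Meis1 and Mecom, and early lymphoid priming is read from genes such as Dntt and Il7r.

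The promoters of 4 genes for defining enzymes of primary granules are printed here because the comparison turns on this granule program. They are myeloperoxidase (Mpo), neutrophil elastase (Elane), proteinase 3 (Prtn3) and cathepsin G (Ctsg). Each sequence comes from RefSeq (GRCm38.p6) and runs from 250 bases before to 50 bases after the annotated gene start, 5′ to 3′ on the gene's strand. Capitals mark GAGGAAG, the letters searched for PU.1, which were sought on both strands.
Mpo (chr11:87793534-87793833, + strand): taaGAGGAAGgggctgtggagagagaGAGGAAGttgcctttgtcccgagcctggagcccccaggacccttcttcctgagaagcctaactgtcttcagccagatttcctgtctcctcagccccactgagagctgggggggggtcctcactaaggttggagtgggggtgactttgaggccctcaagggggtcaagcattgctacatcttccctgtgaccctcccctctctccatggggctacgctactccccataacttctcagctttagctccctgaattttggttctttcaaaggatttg
Elane (chr10:79886062-79886361, + strand): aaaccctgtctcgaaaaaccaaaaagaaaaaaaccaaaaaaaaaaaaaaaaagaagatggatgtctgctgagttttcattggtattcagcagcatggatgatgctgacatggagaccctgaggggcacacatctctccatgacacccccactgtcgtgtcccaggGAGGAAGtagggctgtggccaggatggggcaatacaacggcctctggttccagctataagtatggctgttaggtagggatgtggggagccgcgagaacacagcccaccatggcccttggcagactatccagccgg
Prtn3 (chr10:79879417-79879716, + strand): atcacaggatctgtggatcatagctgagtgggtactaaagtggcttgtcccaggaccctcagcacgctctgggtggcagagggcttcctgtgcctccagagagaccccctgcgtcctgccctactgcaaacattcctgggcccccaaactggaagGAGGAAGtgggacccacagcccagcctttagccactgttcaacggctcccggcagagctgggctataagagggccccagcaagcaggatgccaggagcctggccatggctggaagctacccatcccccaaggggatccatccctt
Ctsg (chr14:56102525-56102824, - strand): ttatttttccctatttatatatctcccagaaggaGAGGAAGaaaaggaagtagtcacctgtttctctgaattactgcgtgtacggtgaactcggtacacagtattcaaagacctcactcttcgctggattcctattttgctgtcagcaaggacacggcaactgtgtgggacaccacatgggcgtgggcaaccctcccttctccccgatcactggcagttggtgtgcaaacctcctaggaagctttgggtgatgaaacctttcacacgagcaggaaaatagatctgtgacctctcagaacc
The motif occurred 2 times in the Mpo window and 1 time in each of the other windows. It was present in 13.6% of all 32851 RefSeq promoters of this length, in 12.9% of the promoters of genes called higher in GMP and in 15% of those called lower. The C/EBP letters TTGCNNAA were in none of the 4 windows and in 10.8% of all promoters. The RUNX letters TGTGGT were in the Ctsg window and in 16.8% of all promoters. These matches describe letters and not bound sites.

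The deposited log2 values differed in overall level between arrays. Probes with exactly equal values in different arrays divided the series into 5 sets that have no name in the labels. Array medians did not enter this division, and they ran from 6.86 to 6.996 in 1 set and from 6.9 to 7.048 in another. GMP 1 to 3 lay in a set with pre-granulocytes and granulocytes, MPP3 1 and 2 in a set with short-term stem cells and MPP2, and GMP 4 and MPP3 3 in the single set that held both populations. All levels below are log2 values after quantile normalization of the 31 arrays, and a difference is GMP minus MPP3 on that scale, ± its standard error from limma, where 1 is a 2-fold change. A gene was called when its Benjamini-Hochberg adjusted p over all 19938 genes was under 0.05 in limma's two-sided test. A second fit with the set as a block rests the difference on GMP 4 minus MPP3 3 alone. Its calls are given beside those of the first. GMP arrays correlated with each other at 0.9760 to 0.9955 across genes, MPP3 arrays at 0.9651 to 0.9910, and GMP with MPP3 arrays at 0.9332 to 0.9637. The X-inactivation transcript Xist stood at 5.70, 10.36, 9.0 and 11.23 in GMP 1 to 4, and at 5.55, 5.56 and 11.84 in MPP3 1 to 3. The Y-linked Eif2s3y stood at 9.21, 7.87, 8.89 and 4.51 in GMP 1 to 4 and at 9.16, 8.97 and 4.17 in MPP3 1 to 3, so both arrays of the shared set had high Xist and low Eif2s3y. The part of these differences in the results was not tested.

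Of 19938 genes, 2495 (12.5%) were called higher in GMP and 1615 (8.1%) lower. Counts of called list members below are to be read beside these shares, and some lie near them. At least 2-fold differences were found for 463 of the higher and 307 of the lower genes, and at least 4-fold for 63 and 42. The median difference over all genes was 0.03, with quartiles of -0.16 and 0.24. The difference GMP 4 minus MPP3 3 had the same sign for 3905 of the 4110 called genes. Both of its arrays also entered the fit that made the calls, so this agreement is partly built in. With the set block 2.55% of all genes were called higher and 2.32% lower, 970 in all, and 435 (2.18% of all genes) were called higher and 299 (1.5%) lower in both fits. Every GMP array exceeded every MPP3 array for 17% of all genes, and every GMP array lay below every MPP3 array for 10.9%. On the deposited scale, where the median gene differed by -0.29, 20.8% of the called genes were higher in GMP, against 60.7% here and 75.5% with median centring. Where a gene's difference under another scaling is given below, the median of all genes was set to its quantile-normalized value, and the adjusted p is that of the difference before this shift.

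The genes of the sort markers were read as a check of the gates. Fcgr3, an activating Fc gamma receptor, stood at 10.06, 10.15, 10.01 and 10.14 in GMP and at 7.68, 7.34 and 7.53 in MPP3. Fcgr2b, an inhibitory Fc receptor, was also higher in GMP (difference 1.43 ± 0.16). Kit stood at 10.04 to 10.46 in GMP and at 11.10 to 11.18 in MPP3, both high, and its difference of -0.94 ± 0.11 became -0.36 with median centring (adjusted p = 0.148). Flt3, which encodes Flk2, was at 7.59 to 7.86 in GMP and at 9.56 to 9.81 in MPP3, although the MPP3 gate is Flk2-. Cd34 was lower in GMP (10.62 to 10.88, against 11.44 to 11.57), as was Ptprc, which encodes CD45 (9.87 to 10.66, against 11.02 to 11.20). Cd48 overlapped between the populations at 10.27 to 10.67, and neither Slamf1 (CD150) nor Ly6g, a granulocyte antigen, was called. Slamf1 stood at 4.83 to 5.74 over the 7 arrays and Ly6g at 4.73 to 5.92. Itgam, which encodes Mac1, was called higher (0.79 ± 0.20), but its call ended with the set block (0.16, adjusted p = 0.873) and on the deposited values (adjusted p = 0.139). With the set block the call of Cd34 ended at a similar difference (-0.80, against -0.75 without it, adjusted p = 0.0802), and that of Ptprc ended at a smaller one (-0.36, adjusted p = 0.366). The difference of Cd34 also depended on the scaling, being -0.14 on the deposited values (adjusted p = 0.15) and with median centring (adjusted p = 0.743). The genes of Sca1 and Ly6C were not analysed here.

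**Figure D1:**
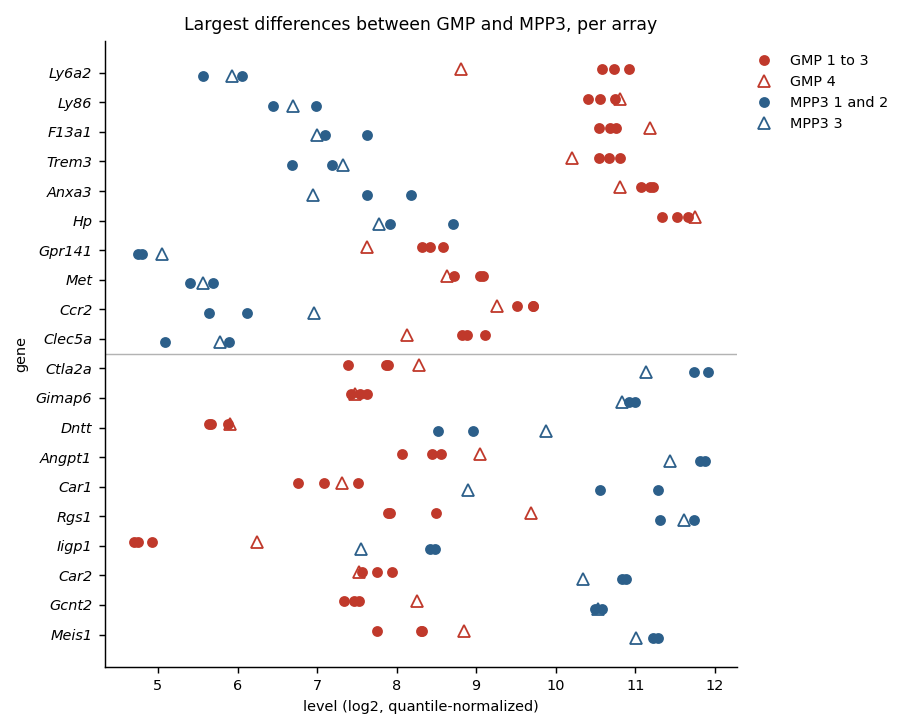
Level (log2, quantile-normalized, horizontal axis) of the 10 genes with the largest rise and the 10 with the largest fall, in each of the 4 GMP arrays (red) and 3 MPP3 arrays (blue). Genes were taken only where called, without overlap between the groups and with the same sign of GMP 4 minus MPP3 3. Triangles mark GMP 4 and MPP3 3, the arrays of the shared set. For most of these genes, among them Ly6a2, Rgs1 and Iigp1, the GMP 4 triangle lies nearer to MPP3 than the other GMP arrays do.

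Among single genes, Ly86, Ly6a2, F13a1 and Hp were among the 10 with the largest differences upward. Ly86, which encodes the MD-1 partner of a Toll-like receptor homologue, stood at 10.74, 10.41, 10.56 and 10.80 in GMP and at 6.99, 6.45 and 6.69 in MPP3. It was therefore 15.1-fold higher in GMP, with no overlap between the groups (difference 3.92 ± 0.31, adjusted p = 2.34e-10). F13a1, the A subunit of coagulation factor XIII and a marker of the monocyte branch, stood at 10.75, 10.55, 10.68 and 11.18 against 7.63, 7.10 and 6.99. All 4 GMP arrays lay above MPP3, at a difference of 3.55 ± 0.24 (adjusted p = 1.81e-11). Haptoglobin (Hp), a haemoglobin-binding granule protein, stood at 11.33, 11.52, 11.67 and 11.75 against 8.70, 7.92 and 7.77. The chemokine receptor Ccr2, which directs monocytes out of the marrow, stood at 9.72, 9.52, 9.72 and 9.26 against 6.12, 5.64 and 6.96. The plot of the largest differences shows each array.

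The myeloid surface receptors Trem3 (difference 3.49 ± 0.21) and Clec5a (3.15 ± 0.21), annexin Anxa3 (3.48 ± 0.25), the orphan receptor Gpr141 (3.37 ± 0.21) and the hepatocyte growth factor receptor Met (3.32 ± 0.23) completed this group with Ly6a2. Met stood at 9.09, 8.72, 9.05 and 8.63 in GMP and at 5.40, 5.69 and 5.57 in MPP3. Ly6a2, a member of a family of near-identical Ly6 genes whose probes cannot be assigned with certainty, stood at 10.73, 10.58, 10.92 and 8.81 against 5.56, 6.06 and 5.93. GMP 4 was the low array there, and it lay above every MPP3 array, as the choice required. All 10 of these genes were called with the set block too.

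Among genes chosen in the same way, antibody genes aside, the largest fall was in Ctla2a, an inhibitor of cathepsin L-like proteases. Ctla2a has a near-identical neighbour, so its probe may read both. It stood at 7.86, 7.89, 7.38 and 8.28 in GMP and at 11.74, 11.91 and 11.13 in MPP3. Gimap6, a GTPase of lymphocyte survival, had a mean of 7.52 (SD 0.087, n = 4) against 10.92 (SD 0.086, n = 3), a difference of -3.40 ± 0.23. The carbonic anhydrase Car2 was at 7.52 to 7.94 against 10.34 to 10.89 (-2.99 ± 0.13), and Gcnt2, a glycosyltransferase of blood group I antigens, was at 7.34 to 8.26 against 10.49 to 10.59. Each of these was lower in every GMP array, as the choice required, and was called in both fits. Dntt, Angpt1 and Meis1, also among the 10 largest falls, are described with their lists. Except for Dntt, the 10 largest falls were smaller within the shared set, and those of Car1, Rgs1 and Iigp1 shrank the most. Car1, an erythroid carbonic anhydrase, stood at 7.09, 7.52, 6.76 and 7.31 against 10.56, 11.28 and 8.90. Rgs1, a regulator of G-protein signalling, stood at 7.92, 8.49, 7.89 and 9.69 against 11.30, 11.73 and 11.61. Iigp1, an interferon-inducible GTPase, stood at 4.75, 4.70, 4.93 and 6.24 against 8.42, 8.49 and 7.55. With the set block these calls ended (adjusted p = 0.284, 0.0611 and 0.11).

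The primary granule list had the highest median. Besides primary granule enzymes it holds other myeloid genes, among them Ms4a3, Clec12a, Hp and Anxa3, and the difference of Anxa3 was the largest (3.48). Its median and counts therefore do not describe primary granule proteins alone. Of 16 members, all measured, 13 were called higher in GMP and 0 lower, 11 of them also with the set block, and the median difference was 2.22 against 0.03 over all genes. Elane stood at 11.81, 12.01, 11.94 and 11.27 in GMP and at 9.62, 8.71 and 8.24 in MPP3, a difference of 2.90 ± 0.30 (adjusted p = 4.91e-08). Ms4a3, a membrane protein of GMP and their progeny, stood at 11.85, 12.04, 11.94 and 12.21 against 10.28, 8.90 and 7.40. The spread of Ms4a3 was thus wide among MPP3 arrays and narrow among GMP arrays. Prtn3 stood at 11.26, 11.50, 11.52 and 9.96 against 9.46, 8.68 and 8.16, and Ctsg at 12.63, 12.82, 12.75 and 12.44 against 11.11, 10.30 and 9.78. The groups did not overlap for either protease. Clec12a, an inhibitory lectin receptor, stood at 10.94, 11.08, 11.03 and 10.91 against 9.38, 8.99 and 6.32, with MPP3 3 far below the other MPP3 arrays. Its difference of 2.76 ± 0.41 became 1.81 without MPP3 3 and 4.60 with the set block, and it was called in each. The difference of Ms4a3 was 3.15, against 2.42 without MPP3 3, 3.86 without MPP3 1 and 4.81 with the set block. Cst7, a cathepsin inhibitor, rose by 2.41 ± 0.34. The cells of a progenitor gate are measured together here, so fewer cells of a type and less RNA per cell cannot be told apart in any of these values.

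Mpo, the most abundant enzyme of these granules, stood at 13.12, 13.26, 13.26 and 13.10 in GMP and at 12.74, 12.29 and 12.40 in MPP3. Every GMP array thus lay above every MPP3 array, yet the difference of 0.71 ± 0.29 was not called (adjusted p = 0.0839). With median centring it was called (1.16, adjusted p = 0.0024). The standard error uses the spread within all 9 populations and not within GMP and MPP3 alone. Mpo varied more in some others, at 7.6 to 8.84 in short-term stem cells and 10.23 to 11.68 in granulocytes. Mpo was near the top of the scale in both populations, at a mean percentile of 99.6 among all genes in MPP3 and higher still in GMP. Srgn, the proteoglycan that packs proteases into granules, differed by 0.16 ± 0.10 and was not called, except with median centring (0.71, adjusted p = 0.00358).

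**Figure D2:**
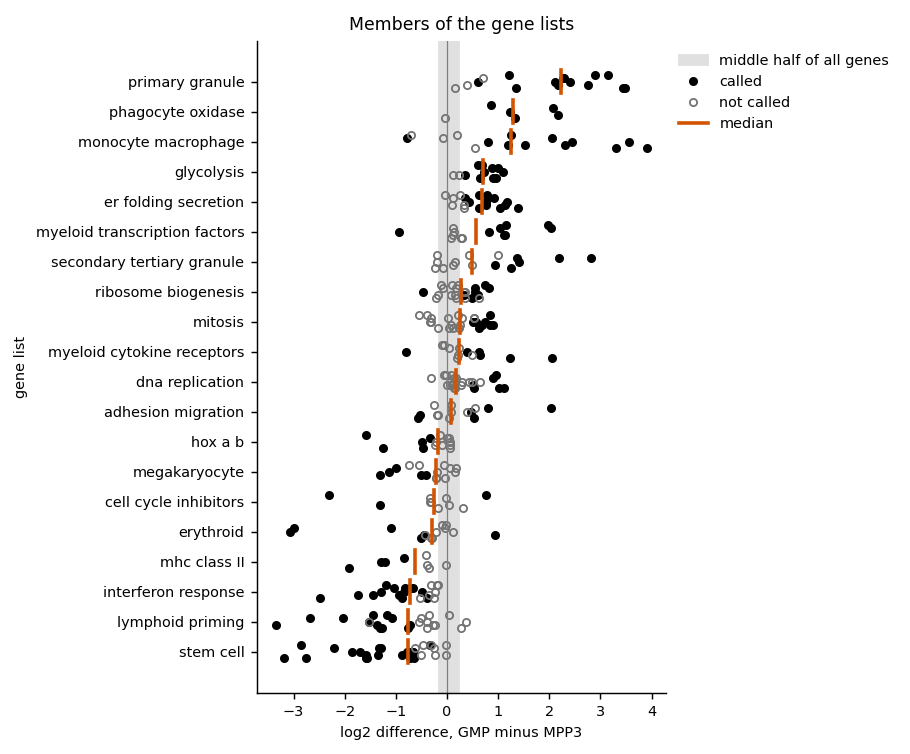
Log2 difference, GMP minus MPP3 (horizontal axis), of each measured member of the gene lists, ordered by list median (orange bar). Filled points were called and open points were not, and the grey band from -0.16 to 0.24 holds the middle part of all genes between the quartiles. Primary granule members lie mostly far to the right and stem cell and lymphoid members to the left.

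The secondary and tertiary granule list had a lower median difference than the primary granule list. It too holds other myeloid genes, among them Ltb4r1, S100a8, S100a9 and Hdc, so its median and counts do not describe granule proteins alone. Of 15 members, all measured, 6 were called higher and 1 of these with the set block, and the median was 0.49. Camp, the cathelicidin of secondary granules, stood at 6.96, 8.48, 7.44 and 7.0 in GMP and at 7.59, 7.54 and 7.50 in MPP3. Lactoferrin (Ltf) stood at 5.92, 6.39, 6.43 and 6.37 against 6.13, 6.07 and 6.14. Both overlapped between the populations and neither was called. Hdc, the histamine-forming enzyme also made by basophil precursors, was the exception that held in both fits (difference 2.81 ± 0.22, adjusted p = 3.9e-10). S100a8, a calcium-binding protein of neutrophils, stood at 10.46, 11.92, 11.53 and 9.39 against 9.43, 8.83 and 7.67, and Chil3, a chitinase-like protein, at 6.96, 8.02, 7.62 and 4.86 against 5.57, 5.62 and 5.17. GMP 4 was the low array for both and overlapped MPP3. Their calls ended with the set block (adjusted p = 0.233 and 0.778), as did that of lipocalin Lcn2 (1.25 ± 0.20, adjusted p = 0.578).

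The phagocyte oxidase, which makes superoxide in granulocytes and monocytes, rose in most of its subunits. Of 7 genes, 6 were measured and 5 were called higher, 3 with the set block as well, with a median of 1.28. The catalytic subunit Cybb stood at 10.02, 10.17, 10.19 and 9.82 in GMP and at 8.08, 7.82 and 7.74 in MPP3. The cytosolic organiser Ncf1 was at 9.25 to 9.98 against 7.47 to 7.93, with no overlap (difference 2.07 ± 0.18). Ncf4, another cytosolic subunit, differed by 0.85 ± 0.16, a call that ended on the deposited values (0.95, adjusted p = 0.0672). The membrane partner Cyba (1.34 ± 0.29) and the proton channel Hvcn1 (1.23 ± 0.18) were called, and the calls ended with the set block (adjusted p = 0.652 and 0.11). The GTPase Rac2, which activates the complex, was not called (-0.04 ± 0.17), but was called higher with median centring (0.53, adjusted p = 0.0131).

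Among 14 myeloid transcription factors, all measured, 7 were called higher and 1 lower, 4 and 0 of these with the set block, and the median difference was 0.56. Irf8 stood at 9.57, 9.21, 9.69 and 9.01 in GMP and at 7.55, 7.38 and 7.27 in MPP3, a difference of 1.97 ± 0.19 (adjusted p = 1.23e-08). Cebpd, a C/EBP factor induced by cytokines, stood at 8.81, 9.14, 9.11 and 7.8 against 6.56, 6.47 and 7.03. Cebpa stood at 9.76, 9.79, 9.94 and 9.92 against 8.42, 8.75 and 9.06. These 3 genes were separated in all arrays. Cebpe, the C/EBP factor of later granulocyte maturation, differed by 1.15 ± 0.13, and Spi1, which encodes PU.1, by 0.83 ± 0.18. Zeb2, a repressor needed for monocyte and dendritic cell fates, rose by 1.03 ± 0.14 and Nfil3, a basic leucine zipper factor, by 1.14 ± 0.21, both in both fits. With the set block the calls of Cebpa, Cebpe and Spi1 ended (adjusted p = 0.0929, 0.0663 and 0.304). Cebpb (0.13 ± 0.13), the factor of emergency granulopoiesis, and Gfi1 (0.29 ± 0.11), a repressor needed by neutrophils, were not called. Id2, an inhibitor of helix-loop-helix factors, was called lower, but it stood at 6.52 to 6.99 in GMP and at 8.28, 8.10 and 6.69 in MPP3, so MPP3 3 overlapped GMP, and its set block adjusted p was 0.701.

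Cytokine receptors differed gene by gene, beside 12.5% of all genes called higher and 8.1% lower. Of 13, all measured, 5 were called higher and 1 lower, and 2 of the higher held with the set block, with a median of 0.24. Csf1r, the receptor of the macrophage growth factor M-CSF, stood at 8.85, 8.63, 8.86 and 8.60 in GMP and at 6.66, 6.70 and 6.68 in MPP3 (difference 2.05 ± 0.12, adjusted p = 1.58e-12). Ifngr1, a chain of the interferon gamma receptor, stood at 11.06, 11.14, 11.11 and 11.32 against 10.10, 9.98 and 9.72. Csf3r, the receptor of the granulocyte growth factor G-CSF, stood at 8.98, 9.13, 9.13 and 8.45 against 9.23, 9.26 and 8.42. The 2 chains for macrophage and interferon signals were thus fully separated, while Csf3r overlapped and was not called (-0.05 ± 0.19). The GM-CSF receptor chains Csf2ra (0.65 ± 0.21) and Csf2rb (0.62 ± 0.17) were called higher and Il17ra, for interleukin 17, lower (-0.81 ± 0.22). These 3 calls ended with the set block (adjusted p = 0.475, 0.296 and 0.37), where the difference of Csf2ra was 0.26, that of Csf2rb 0.61 and that of Il17ra -0.67. The call of Csf2rb also ended on the deposited values (0.82, adjusted p = 0.12), and that of Il17ra with median centring (-0.45, adjusted p = 0.155). Il6ra, for interleukin 6, was not called (0.20 ± 0.13).

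Genes of the monocyte branch rose together with those of granules. Of 16 members, 15 were measured, 10 were called higher and 1 lower, 7 and 0 of these with the set block, and the median was 1.24. Besides Ly86, F13a1, Ccr2 and Csf1r, the called genes included the membrane protein Ms4a6c (difference 2.45 ± 0.28) and the pore-forming perforin-2 gene Mpeg1 (2.31 ± 0.21), both in both fits. The members did not move as a block. Cx3cr1, the fractalkine receptor of patrolling monocytes, stood at 8.46, 8.22, 8.46 and 8.97 against 7.67, 7.82 and 8.48, and Fcgr1, a high-affinity Fc receptor of mature monocytes, differed by -0.08 ± 0.19, and neither was called. The S100 protein gene S100a4 was called lower (-0.79 ± 0.28), a call that ended with the set block (adjusted p = 0.381) and with median centring (adjusted p = 0.406).

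Some basophil and eosinophil genes were also higher in GMP. Of 16 markers of eosinophils, basophils and mast cells, 14 were measured, 6 were called higher and 2 lower, and 3 of the higher held with the set block. Prg3, an eosinophil granule protein, stood at 8.96, 8.71, 8.80 and 8.75 against 6.54, 6.84 and 6.39. Mcpt8, a basophil protease, stood at 9.94, 9.69, 9.81 and 10.66 against 8.54, 8.54 and 7.35. Gzmb, a protease of cytotoxic cells that is also on the T and NK cell list, stood at 8.21, 8.44, 8.69 and 9.09 against 6.70, 6.65 and 6.16. All 3 were separated in every array. Cpa3, the carboxypeptidase of mast cells (0.42 ± 0.41), and Prg2 (0.95 ± 0.41) were not called. The members called higher also included Csf2rb, given above with the cytokine receptors, and the lowest difference in the list was -0.85. The summed linear signal of the measured markers (2 to the power of each log2 level, in arbitrary units) was 4064 to 5956 in GMP and 1857 to 2845 in MPP3. Gzmb and Csf2rb enter this sum. The part of these markers in the granule differences was not tested.

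**Figure D3:**
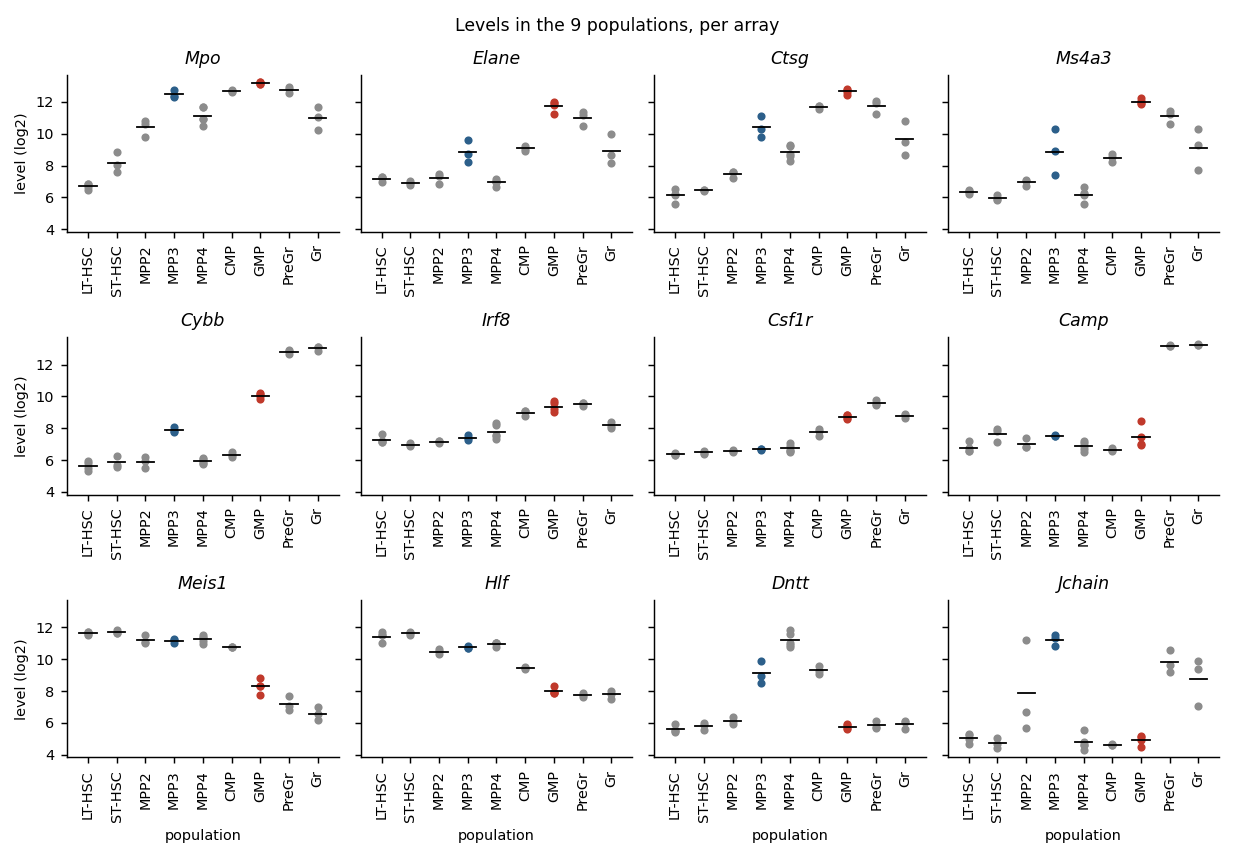
Level (log2, quantile-normalized) of 12 genes in each array of the 9 populations, with the mean as a black bar, GMP in red and MPP3 in blue. Elane, Ctsg and Ms4a3 are highest in GMP, Camp is above 13 in pre-granulocytes and granulocytes, Meis1 and Hlf are low from GMP onward, and Jchain is high in MPP3 and not in GMP.

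Among the 9 populations, GMP held the highest means of Mpo, Elane, Ctsg, Prtn3 and Ms4a3. The mean level of Elane was 7.18 in long-term stem cells, 8.86 in MPP3, 9.07 in common myeloid progenitors, 11.76 in GMP, 11.01 in pre-granulocytes and 8.94 in granulocytes. The mean of Ctsg was 6.12 in long-term stem cells, 10.40 in MPP3, 11.68 in common myeloid progenitors and 12.66 in GMP. For Mpo the means were 6.69 in long-term stem cells, 12.48 in MPP3, 12.69 in common myeloid progenitors and 13.19 in GMP, so the gap between MPP3 and common myeloid progenitors was smaller than the spread of the 3 MPP3 arrays (12.29 to 12.74). Cybb and Camp peaked later: Cybb was at 10.05 in GMP and 13.02 in granulocytes, and Camp at 7.54 in MPP3, 7.47 in GMP and 13.20 in pre-granulocytes. Ly6a2 and Gpr141 continued upward as well, with Gpr141 at 8.24 in GMP and 10.88 in granulocytes. These levels are descriptions with no test.

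Most stem cell genes were lower in GMP. Of 30 members, 28 were measured, 0 were called higher and 20 (against 8.1% of all genes) were called lower, 13 of them also with the set block, and the median was -0.77. The homeobox factor Meis1 stood at 8.32, 8.31, 7.76 and 8.85 in GMP and at 11.22, 11.28 and 11.01 in MPP3. Hlf, a leucine zipper factor of self-renewal, stood at 7.95, 7.91, 7.88 and 8.32 against 10.83, 10.73 and 10.74. The niche ligand Angpt1, an angiopoietin, stood at 8.55, 8.44, 8.07 and 9.04 against 11.81, 11.87 and 11.43. None of these groups overlapped. The differences of Meis1 (-2.86 ± 0.20), Hlf (-2.75 ± 0.14) and Angpt1 (-3.18 ± 0.20) held in both fits. The zinc finger factor Mecom (-2.21 ± 0.19), the RNA-binding protein gene Rbpms (-1.85 ± 0.16) and Txnip, a thioredoxin inhibitor (-1.71 ± 0.14), fell in both fits as well. The protein C receptor Procr (-0.51 ± 0.22) and the adhesion molecule Esam (-0.32 ± 0.16) were not called.

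Some Hox genes were lower in GMP, beside 8.1% of all genes called lower. Of 16 genes of the A and B clusters, 14 were measured, 5 were called lower and 0 higher, with a median of -0.17, and 0 of the 5 were called with the set block. Hoxa5 stood at 6.06, 6.02, 6.13 and 7.34 in GMP and at 8.27, 8.23 and 7.42 in MPP3, so that GMP 4 and MPP3 3 differed by -0.07 alone. Hoxa10, a factor of immature myeloid cells, differed by -1.26 ± 0.19 and its set block adjusted p was 0.231. Hoxa9, the cluster gene most studied in leukaemia, was at 7.69 to 8.12 against 8.17 to 8.23 and was not called.

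Lymphoid priming, which in the multipotent compartment is read from early lymphoid genes, was lower in GMP for part of the list. Of 26 members, 23 were measured, 12 were called lower and 0 higher, 8 of them in both fits, and the median was -0.75. Dntt, the polymerase that adds bases at antigen receptor joints, stood at 5.66, 5.64, 5.88 and 5.91 in GMP and at 8.96, 8.53 and 9.88 in MPP3. Il7r, the interleukin 7 receptor, stood at 4.67, 4.75, 4.88 and 5.77 against 8.07, 7.8 and 7.24. Both were separated, but the call of Il7r ended with the set block (adjusted p = 0.0912). The costimulatory receptor Cd27 fell by 1.45 ± 0.12, and Blnk, an adaptor of B cell receptor signals, fell by 1.37 ± 0.18. Ebf1, the B cell specification factor, was called lower (-1.52 ± 0.34) with a set block adjusted p of 0.169. Satb1 and Ikzf1, chromatin regulators of lymphoid cells, were not called (-0.38 ± 0.19 and -0.28 ± 0.12).

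Antibody genes held the 4 largest differences downward. Jchain, the joining chain of secreted IgA and IgM, stood at 5.12, 4.95, 5.21 and 4.50 in GMP and at 11.31, 11.53 and 10.85 in MPP3 (difference -6.29 ± 0.73, adjusted p = 3.58e-07). Its GMP level lay at a mean percentile of 6.5 among all genes, close to its level in common myeloid progenitors, so no fold is given. Igha, the IgA heavy chain, stood at 6.52, 6.73, 6.57 and 7.17 against 10.61, 11.51 and 10.77. Across the populations Jchain averaged 7.87 in MPP2 with a range of 5.70 to 11.19, 4.64 in common myeloid progenitors and 9.80 in pre-granulocytes, so that the 3 MPP3 arrays and 1 MPP2 array were high among the progenitor gates. Of the 12 antibody genes measured, 10 were called lower and 0 higher, 5 also with the set block, with a median of -2.23. Their summed linear signal was 827 to 996 in GMP and 8922 to 15628 in MPP3.

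Other markers of B and plasma cells moved with the antibody genes. Of 17 markers, 15 were measured, 11 were called lower and 0 higher, 5 of them in both fits, and the summed linear signal was 1949 to 2111 in GMP and 6807 to 9462 in MPP3. The B cell receptor chain Cd79a fell by 1.83 ± 0.25, and the B cell coactivator Pou2af1 fell by 1.45 ± 0.32. Pax5, the B cell commitment factor (-0.29 ± 0.18), and Ms4a1, which encodes CD20 (-0.39 ± 0.27), were not called. The part of these markers in the lymphoid and class II differences was not tested.

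**Figure D4:**
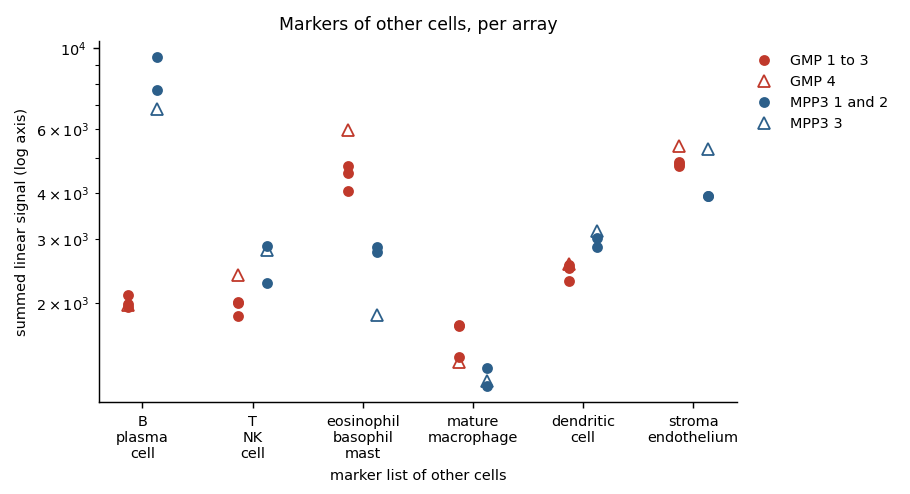
Summed linear signal (arbitrary units, log axis) of the measured markers of 6 kinds of other cells in each GMP array (red) and MPP3 array (blue), with triangles for GMP 4 and MPP3 3. B and plasma cell markers lie at 1949 to 2111 in GMP and 6807 to 9462 in MPP3, and eosinophil, basophil and mast cell markers are the reverse.

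Of 17 T and NK cell markers, 16 were measured, 1 was called higher and 6 lower, and their sum was 1842 to 2396 in GMP and 2277 to 2866 in MPP3. Thy1, a surface antigen of T cells and some progenitors, fell by 1.77 ± 0.21, while Cd3e, of the T cell receptor complex, differed by 0.05 ± 0.14. Of 12 markers of mature macrophages, all measured, 2 were called higher and 2 lower, with sums of 1375 to 1747 in GMP and 1185 to 1331 in MPP3. Adgre1, which encodes F4/80, rose by 1.96 ± 0.17, and C1qa, a complement component of tissue macrophages, was not called (0.22 ± 0.18). Of 12 dendritic cell markers, 11 were measured, 1 was called higher and 3 lower, with sums of 2304 to 2562 in GMP and 2847 to 3156 in MPP3. The highest difference among them was that of Irf8 (1.97) and the lowest that of Flt3 (-2.04), both described above. Bst2 is on the interferon list too. Of 12 stromal and endothelial markers, all measured, 0 were called higher and 1 lower, with sums of 4745 to 5393 in GMP and 3924 to 5298 in MPP3. The vascular cadherin Cdh5 and the chemokine Cxcl12, which define that list, were not called. In both populations the mean percentile among genes was under 25 for 5 of the measured T and NK cell markers, 1 of the B and plasma cell markers, 3 of the eosinophil, basophil and mast cell markers, 2 of the macrophage, 2 of the dendritic and 3 of the stromal markers. Of all genes 12.5% were called higher and 8.1% lower, and several counts of these markers lie near those shares. The part of these markers in the results was not tested.

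Many interferon-stimulated genes were lower in GMP. Of 23 members, 21 were measured, 14 were called lower and 0 higher, 5 of them in both fits, and the median was -0.72. Rtp4, an interferon-induced chaperone, was lower by the most (difference -2.48 ± 0.16, adjusted p = 1.05e-11), and the falls of the membrane protein Ifitm1 (-1.75 ± 0.18) and the RNA sensor Ddx58 (-1.44 ± 0.17) held in both fits. Ifit1, which binds viral RNA, stood at 6.33, 6.45, 6.45 and 6.50 against 7.27, 7.57 and 7.59, with no overlap, but its set block adjusted p was 0.131. Stat2, a signal transducer of this pathway, and Mx1, an antiviral GTPase, were not called (-0.35 ± 0.13 and -0.26 ± 0.24). Of 10 genes for MHC class II presentation, 8 were measured, 4 were called lower and 0 higher, 0 of them with the set block, with a median of -0.62. Cd74, the invariant chain, stood at 6.88, 6.99, 6.78 and 6.57 against 8.91, 9.03 and 8.21, and its call ended with the set block (adjusted p = 0.0835). Ciita, the master regulator of class II genes, was not called (-0.02 ± 0.10).

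Genes of megakaryocytes and red cells were lower in part, beside 12.5% of all genes called higher and 8.1% lower. Of 19 megakaryocyte genes, 15 were measured, 5 were called lower and 0 higher, 1 of them in both fits, with a median of -0.21. F2r, the thrombin receptor, fell by 1.30 ± 0.14, and Vwf, von Willebrand factor, was not called (-0.07 ± 0.16). Of 17 erythroid genes, 14 were measured, 1 was called higher and 5 lower, 0 and 2 of them with the set block, with a median of -0.30. Zfpm1, the partner of the factor GATA1, fell by 1.10 ± 0.13, whereas Gata1 itself was at 7.35 to 7.75 against 7.89 to 7.99 and was not called. Tfrc, the transferrin receptor, was called higher (0.94 ± 0.23), a call that ended with the set block (adjusted p = 0.128).

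**Figure D5:**
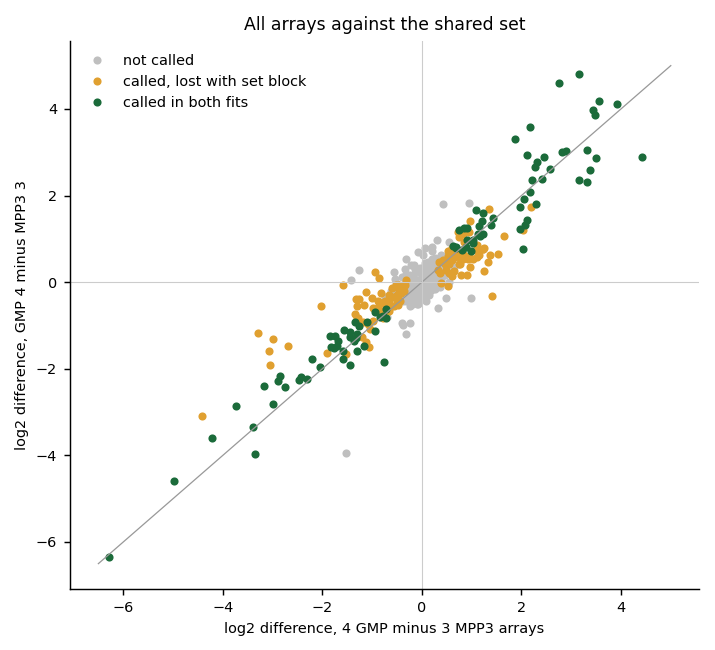
Log2 difference of 4 GMP minus 3 MPP3 arrays (horizontal axis) against GMP 4 minus MPP3 3, which lie in 1 set of arrays (vertical axis), for the list members, named genes and antibody genes. Green points were called in both fits, orange points only without the set block, and grey points were not called without it. Most called points lie in the lower left and upper right quadrants. Both arrays of the vertical axis also enter the horizontal axis, so this agreement is partly built in.

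Some cell division genes were higher in GMP, beside 12.5% of all genes called higher. Of 25 mitosis genes, 24 were measured, 8 were called higher and 0 lower, 1 of them in both fits, with a median of 0.24. Cdc20, the activator of the anaphase-promoting complex, differed by 0.90 ± 0.18, with a set block adjusted p of 0.819. The proliferation marker Mki67 was at 10.11 to 10.98 in GMP and 10.60 to 10.88 in MPP3 and was not called. Of 24 DNA replication genes, 23 were measured, 6 were called higher and 0 lower, 1 of them in both fits, with a median of 0.18. Fen1, the flap endonuclease, rose by 0.91 ± 0.14, and the helicase subunit Mcm6 (0.00 ± 0.18) and the clamp Pcna (-0.32 ± 0.13) were not called. Of 11 cell cycle inhibitors, 10 were measured, 1 was called higher and 2 lower (against 12.5% and 8.1% of all genes). The 2 that fell in both fits were Trp53inp1 (-2.31 ± 0.13), a stress protein, and Btg2 (-1.31 ± 0.19), an antiproliferative cofactor, whereas Cdkn1b (-0.33 ± 0.24) and Cdkn1c (-0.02 ± 0.29), the inhibitors p27 and p57, were not called.

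Most genes of protein folding and sugar metabolism rose in GMP. Of 20 genes of folding and secretion in the endoplasmic reticulum, all measured, 14 were called higher and 0 lower, 7 of them in both fits, with a median of 0.69. Pdia6, a disulfide isomerase, had a mean of 11.11 in GMP and 9.73 in MPP3, with no overlap (difference 1.38 ± 0.19, adjusted p = 3.86e-06), and its relative P4hb rose by 1.17 ± 0.13. The chaperone Hspa5 (0.25 ± 0.13) and the stress factor Xbp1 (-0.03 ± 0.15) were not called, although Hspa5 was with median centring (0.87, adjusted p = 0.00813). Of 15 glycolysis genes, 12 were measured, 10 were called higher and 0 lower, 5 of them in both fits, with a median of 0.71. Pfkp, a phosphofructokinase, rose by 1.09 ± 0.16 and Hk3, the hexokinase of myeloid cells, by 0.99 ± 0.12, while Hk1 was not called (0.12 ± 0.11). Of 22 ribosome biogenesis genes, all measured, 7 were called higher and 1 lower, 0 of them with the set block, with a median of 0.26. Ncl and Fbl, proteins of the nucleolus, were not called (-0.22 ± 0.12 and 0.17 ± 0.13).

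Adhesion and migration genes were called in both directions, beside 12.5% of all genes called higher and 8.1% lower. Of 15, 14 were measured, 4 were called higher and 2 lower, with a median of 0.07, and 0 were called with the set block. Cxcr2, the chemokine receptor that draws neutrophils from the marrow, stood higher by 2.04 ± 0.27, and Itga4 and Itga6, integrin chains of progenitor anchoring, were lower by the fit (-0.57 ± 0.12 and -0.52 ± 0.13). With the set block the calls of Cxcr2, Itga4 and Itga6 ended (adjusted p = 0.171, 0.0528 and 0.889). On the deposited values and with median centring Itga4 stood at 0.02 and Itga6 at -0.08, and neither was called. Cxcr4, the retention receptor of marrow cells, and Cd44, a hyaluronan receptor, were not called (0.07 ± 0.20 and -0.17 ± 0.13). With median centring Cxcr4 was called higher (0.70, adjusted p = 0.000537).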

How the data were processed

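RNA from the 31 samples was hybridised to Affymetrix arrays, and the deposited log2 values were made by the authors with RMA, per the submitters' processing notes, whose version is not given in the sources used here. Of 35557 probes, 21789 paired with 1 gene, 1621 with several and 12147 with none. The brightest probe stood for each gene, which left 19938 genes named through RefSeq (GRCm38.p6). Arrays were quantile-normalized, and limma 3.58.1 in R 4.3.3 fitted 1 mean per population over all 31 arrays (22 residual degrees of freedom). The set block left 18. Arrays were taken as 1 set where at least 2 probes held identical values in a pair. The fit was also run on simulated data with independent noise and no effect of the sets. That run cannot check the calls against the sets, and its outcome is not given here.

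The 27 lists hold 439 genes, of which 406 were measured; genes on several lists count in each. The text names the 10 largest rises and falls, passing over predicted genes and antibody genes, up to 6 called members of each list, the sort markers, factors of the C/EBP, PU.1, Gfi1 and Irf8 kind, and up to 2 uncalled members that define a list. Prtn3 and Ctsg are named for their promoters. The members and lists were chosen with earlier results of these data known. No protein sequence is shown. Python 3.11.15 and matplotlib 3.10.9 made the figures. The number of arrays limits the precision.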

Additional observations from a re-analysis of the deposited data

Results flagged for a closer look

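Among the 140 named genes, the GMP arrays were checked for 1 array far from the other 3, by the gap to its neighbour as a share of the group's range, against Dixon's critical value. Chance exceeds it in about 1 of 20 groups, and genes of 1 array are not independent. It was exceeded for 14 genes, and GMP 4 was the distant array for 11 of them. GMP 4 was high for Hoxa5 (share 0.920, level 7.34), Pfkp (0.969, level 9.38), Hlf (0.846, level 8.32), Iigp1 (0.850, level 6.24), Rbpms (0.836, level 8.59) and Mki67 (0.836, level 10.98). It was low for Prtn3 (0.835, level 9.96), Ly6a2 (0.837, level 8.81), Hvcn1 (0.840, level 7.16), Hoxa9 (0.859, level 7.69) and C1qa (0.862, level 7.0). GMP 1 was low for Cd79a (0.831, level 5.02), Cxcl12 (0.859, level 6.08) and Ltf (0.869, level 5.92). GMP 4 lies in another set of arrays than GMP 1 to 3, and the part of the set in these gaps was not tested.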

How the results depend on the processing

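GMP 1 to 3 and MPP3 1 and 2 share no set of arrays, so for them set and population cannot be told apart, and GMP 4 minus MPP3 3 is 1 array against 1. The 4110 calls became 970 with the set block (508 higher and 462 lower). Within the shared set, limma had 1 residual degree of freedom and called 0 genes, in each direction and in every list, while 2052 passed an unadjusted p under 0.05. Array weights gave 9366 calls (5598 higher and 3768 lower), and median centring 6198 (4682 higher). On the deposited values 1064 were higher and 4043 lower. A test against a 1.5-fold change called 371 (206 higher and 165 lower). Cyclic loess, the 7 arrays alone, trend and robust fits, a filter on dim genes, the mean of probes and all probes of 1 gene each kept the total within 1.5 times. Leaving out 1 array gave 3023 to 4982 calls, with 1832 to 2809 higher and 1154 to 2173 lower. Without GMP 4 and MPP3 3, chosen after seeing the data, 2739 genes (13.7%) were higher and 1658 (8.32%) lower.

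With the set block the called members were 13 for stem cell genes, 6 for interferon genes, 5 for glycolysis, 7 for endoplasmic reticulum folding and 5 for B and plasma cell markers. Against 1.5-fold they were 12, 3, 0, 4 and 5, and 6 for lymphoid genes. The differences of Chil3 and Id2 changed sign to -0.31 and 0.23 with the set block and within the shared set. With the median of all genes set to its quantile-normalized value, Itga4 changed sign to 0.02 on the deposited values and with median centring, and Rac2 to 0.53 with median centring. Besides these, 7 of the 140 named genes lost their call on the deposited values and 5 with median centring, while 6 and 11 gained one, as did 4 with cyclic loess. The cause was not tested. Of the 140 named genes, 28 kept their sign and lost their call with the set block, beside Chil3 and Id2, and for 34 of the 96 called ones the fold moved by over 1.5 times. Leaving out 1 array moved it that far for 5: Clec12a, Ms4a3, Chil3 (2.08 without GMP 4), Ebf1 (-2.16 without MPP3 2) and Car1 (-3.75 without MPP3 3). Calls of Chil3, Csf2ra, Id2 and S100a4 ended without single arrays: that of S100a4 without any array but MPP3 3, that of Csf2ra without GMP 2 or 3 or MPP3 1 or 2, that of Id2 without GMP 1 or 3 or MPP3 1 or 2, and that of Chil3 without GMP 2 or 3 or MPP3 3. Gata1, Gfi1 and Pcna were called without GMP 4 (adjusted p = 0.0242, 0.0263 and 0.0432), and Ncl and Stat2 without MPP3 3 (adjusted p = 0.0393 and 0.0474).

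The replicate number as a block, fitted on the GMP and MPP3 arrays alone with 2 residual degrees of freedom, gave 4955 calls (2969 higher and 1986 lower). GMP 4 has no MPP3 array of its number, so it did not enter that difference. Same-numbered GMP and MPP3 arrays had residual correlations of 0.3632, 0.2176 and -0.1013, and the labels tie no number to an animal, so the numbers were not taken as pairs. GMP 4 and MPP3 3 had 0.4343.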
